A study of Rattus norvegicus with 35 samples.

Results

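The Slc25 genes encode the mitochondrial carrier family, and they were taken here as every row of the deposited count table whose gene name starts with Slc25a. The rule found 41 members among 15059 genes. Of these, 40 passed the filter on low counts and were tested with 14411 genes in all. Slc25a43, the member that did not pass, had 1 to 11 counts per library. Every member had at least 1 count in every library. Slc25a31, the testis-type ADP/ATP carrier, has no row in the table.

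Mitochondrial carriers are small proteins that sit mostly in the inner mitochondrial membrane and pass metabolites, nucleotides, phosphate, cofactors and amino acids between the cytosol and the matrix. Each alternates between a state open to the cytosol and a state open to the matrix, and many exchange one substrate for another. In brain, the ADP/ATP and phosphate carriers feed oxidative phosphorylation, the aspartate/glutamate and glutamate carriers link energy metabolism to transmitter supply, and the calcium-dependent ATP-Mg/phosphate carriers adjust the adenine nucleotide pool.

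The libraries were made from hippocampus of female Sprague Dawley rats that had surgery at 6 months of age, and each of the 7 groups held 5 libraries. Sham rats kept their ovaries. All rats of the other groups were ovariectomised, and after a washout of 2 weeks they received daily intraperitoneal injections until tissue was taken at 7 days. The vehicle group received vehicle, and the others received estradiol at 0.16 mg/kg, the selective estrogen receptor modulators tamoxifen at 3.23 mg/kg or raloxifene at 9.68 mg/kg, or the aromatase inhibitors exemestane at 0.16 mg/kg or anastrozole at 4.03 mg/kg. These doses are as the labels give them, and estradiol and exemestane carry the same figure. Whether sham rats were injected is not given. Titles name libraries and not animals, so the p-values measure the spread between these libraries. Every comparison with vehicle used the same 5 vehicle libraries.

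Totals ran from 5.58 M to 12.09 M counts (M for mega), and the Slc25a rows together took 0.176 to 0.197% of them. The log ratio of the deposited normalized values to the deposited counts split the libraries into 20 of one class (A) and 15 of another (B), a division with no label whose origin was not tested. Class A libraries had 4.47 to 6.49% of their counts on the non-coding RNA gene Rn7sl1, and class B libraries 2.90 to 3.84%. Raloxifene was class B in all 5 libraries. For the other groups class B held 4 of 5 for exemestane, 3 of 5 for tamoxifen, 2 of 5 for anastrozole, 1 of 5 for vehicle and none of sham or estradiol. Group and class were therefore partly confounded, and each comparison was fitted with group alone and again with class as a further term. The hippocampal marker list (Prox1, Wfs1, Neurod6 and Zbtb20) was present in every library, with a summed level of 445 to 895 CPM (counts scaled to a common library total). Sham replicate 1 stood apart on these lists: its principal cell sum was 445 CPM against 705 to 895 CPM in the other libraries, its thalamic and habenular sum 175 CPM against 27.7 to 50.9 CPM, and its myelin sum 8217 CPM against 4551 to 7170 CPM. Results for sham are therefore given with and without it. Choroid plexus markers summed to between 1.98 and 3200 CPM over the libraries.

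Levels below are CPM on TMM-scaled totals, and a gene was called when its adjusted p from the edgeR quasi-likelihood test was under 0.05. The member that varied least was Slc25a4, the main ADP/ATP carrier of brain, whose highest library was 1.17 times its lowest (311 to 365 CPM). Slc25a3, the phosphate carrier, varied 1.24-fold (224 to 278 CPM). The 3 tested members of lowest mean count gave little to measure. Slc25a52, which is closely related to the NAD carrier Slc25a51, had 1 to 30 counts per library. Slc25a45 had 1 to 19 counts. Slc25a37, the mitoferrin best known from red cell precursors, had 8 to 47 counts. Slc25a4 with Slc25a5, and Slc25a51 with Slc25a52, are closely similar in sequence, so how reads were divided within each pair is uncertain.

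Promoter sequence was set beside the counts for the ADP/ATP pair, which rose together with raloxifene, and for Slc25a14. The log2 fold changes of Slc25a14 were positive in all 6 comparisons with vehicle, as were those of Slc25a4, Slc25a5, Slc25a32 and Slc25a46. The RefSeq promoter table for build GRCr8 held 33 of the 41 members, each as 300 bases (250 before the start site and 50 after it). The 250 bases before the start are printed 5′ to 3′ on the gene's own strand, with any match to a searched motif in capitals. The authors' own build is not given in the sources used here.
Slc25a4, chr16:52805271-52805520 (plus strand): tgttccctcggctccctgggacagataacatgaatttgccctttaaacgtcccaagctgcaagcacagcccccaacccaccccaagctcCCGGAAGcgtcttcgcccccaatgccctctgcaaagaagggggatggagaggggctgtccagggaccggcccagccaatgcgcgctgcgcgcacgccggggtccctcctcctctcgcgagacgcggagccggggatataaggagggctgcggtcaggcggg
Slc25a5, chrX:120897366-120897615 (plus strand): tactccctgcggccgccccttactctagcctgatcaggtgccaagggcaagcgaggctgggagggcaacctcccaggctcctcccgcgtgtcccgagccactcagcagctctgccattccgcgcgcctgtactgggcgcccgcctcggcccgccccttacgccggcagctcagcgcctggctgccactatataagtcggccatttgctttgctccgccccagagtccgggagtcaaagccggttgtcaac
Slc25a14, chrX:132685359-132685608 (plus strand): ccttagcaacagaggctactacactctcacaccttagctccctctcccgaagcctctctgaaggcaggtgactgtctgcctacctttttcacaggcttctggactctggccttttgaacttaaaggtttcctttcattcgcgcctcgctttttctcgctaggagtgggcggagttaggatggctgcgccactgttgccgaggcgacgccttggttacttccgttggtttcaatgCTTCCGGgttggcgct
The capitals mark CCGGAAG, the core that ETS factors such as GABP recognise, read on either strand. It began 161 bases before the Slc25a4 start and 16 bases before the Slc25a14 start, and the Slc25a5 window held none of the motifs searched. Across the members it stood in 6 of 33 promoters (18.2%), namely Slc25a3, Slc25a4, Slc25a14, Slc25a17, Slc25a20 and Slc25a38, against 8.75% of 33469 promoters of the same length. The cAMP response element TGACGTCA was in Slc25a25 and Slc25a33 (6.06% against 1.83%), the NRF1 core GCATGCGC in Slc25a13 (3.03% against 2.47%), and the estrogen-related receptor half-site AAGGTCA in Slc25a34 (3.03% against 4.61%). A full palindromic estrogen response element (GGTCA, 3 bases of any kind, then TGACC) was in 0 of 33 member windows and in 9 of all 33469 (0.0269%). The half-site ends in the GGTCA that opens the palindrome, so these searches can overlap. Member promoters were richer in G and C, with a median of 61% against 51.7%, and the counts were not adjusted for that.

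Raloxifene gave the most calls when group alone was fitted. Against vehicle, 8 carriers rose and 8 fell, which is 16 of 40, or 40%, where 24.8% of all tested genes were called by edgeR (13.4% higher and 11.4% lower). The risers were both ADP/ATP carriers (Slc25a4 and Slc25a5), the uncoupling protein-like Slc25a14, the outer-membrane Slc25a46, the calcium-dependent Slc25a24 and the cofactor or nucleotide carriers Slc25a16, Slc25a32 and Slc25a36. The carriers that fell were Slc25a1 and Slc25a10 for citrate and dicarboxylates, Slc25a29 and Slc25a38 for amino acids, Slc25a28 and Slc25a39 for iron and glutathione, Slc25a23 and Slc25a42. The median log2 fold change over the 40 members was -0.07, and over all tested genes it was -0.02. Without vehicle replicate 1 the count was 10, beside 12.4% of all genes. With the per-gene factors of the deposited normalized table as offsets it was 7, of which 6 were higher and 1 (Slc25a10) lower, beside 6.41% of all genes. Adding class as a term left 0 members called, against 0.00694% of all genes, and 6 at an unadjusted p under 0.05, against 5.30%. DESeq2, fitted with group alone, called 16 members and 31.2% of the genes it gave an adjusted p.

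**Figure D1:**
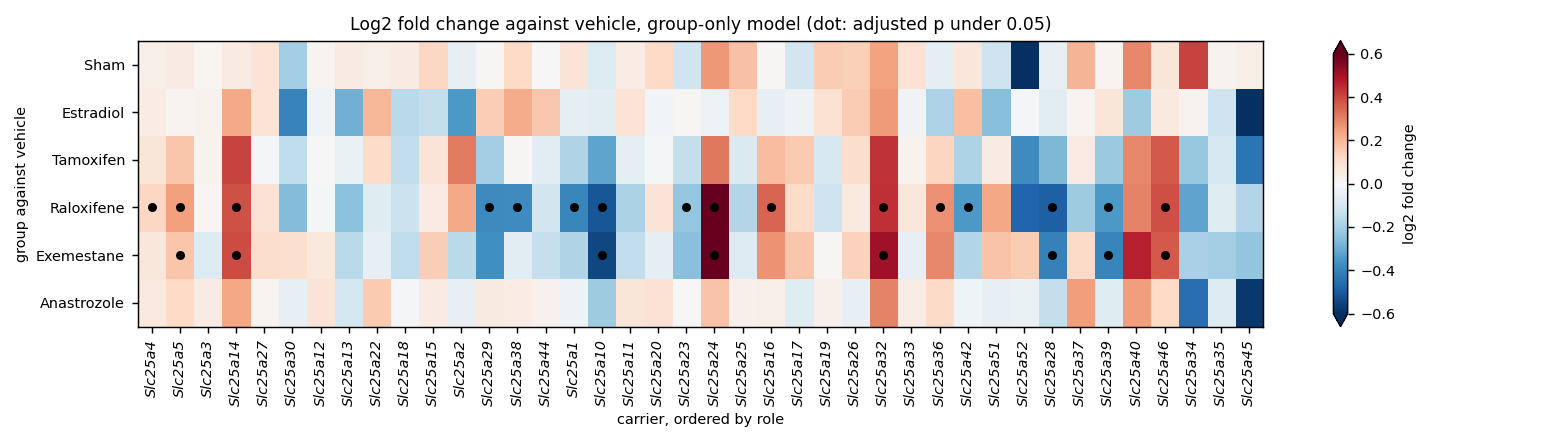
Log2 fold change of each of the 40 tested carriers (columns, ordered by role) in 6 comparisons with vehicle (rows) when group alone is fitted. Colour runs from -0.6 to 0.6, and a dot marks an edgeR adjusted p under 0.05. Dots appear for raloxifene (16) and exemestane (8) only, and Slc25a4, Slc25a5, Slc25a14, Slc25a32 and Slc25a46 are positive in every row.

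Among the ADP/ATP carriers, which exchange mitochondrial ATP for cytosolic ADP, Slc25a5 had the smallest p of the family with raloxifene. Its vehicle libraries read 142, 138, 139, 139 and 139 CPM and its raloxifene libraries 167, 160, 162, 164 and 174 CPM. All raloxifene libraries were above all vehicle libraries. The class B vehicle library (replicate 4) stood at 139 CPM, within the class A ones, while over all groups Slc25a5 was higher in class B by 0.11 ± 0.031 on the log2 scale (edgeR adjusted p = 0.00387). Slc25a5 rose by a log2 fold change of 0.25 ± 0.049 (SE, n = 5 each, edgeR adjusted p = 0.00913). With class as a term its log2 fold change was 0.16 ± 0.046 (edgeR adjusted p = 0.557). Slc25a4 read 318, 322, 329, 311 and 323 CPM with vehicle and 332, 355, 365, 338 and 360 CPM with raloxifene, again without overlap. The rise of Slc25a4 was small, at 0.12 ± 0.042 on the log2 scale (edgeR adjusted p = 0.0331), and the same size with class as a term (0.13 ± 0.044, edgeR adjusted p = 0.772). That call was lost without vehicle replicate 1 or without raloxifene replicate 2, 3 or 5. Slc25a3, the phosphate carrier that works beside this pair, was not called (log2 fold change 0.01 ± 0.050).

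Slc25a14, an uncoupling protein-like carrier enriched in brain, read 23.5, 22.5, 21.1, 20.7 and 20.5 CPM with vehicle and 27.6, 27.98, 31.3, 25.6 and 28.6 CPM with raloxifene. The lowest raloxifene library was above the highest vehicle library. Its log2 fold change was 0.38 ± 0.090 (edgeR adjusted p = 0.0114), and 0.24 ± 0.095 with class as a term (edgeR adjusted p = 0.819). The other uncoupling protein-like carriers were not called. Slc25a27 had a log2 fold change of 0.09 ± 0.077, and Slc25a30 had -0.26 ± 0.20 (edgeR adjusted p = 0.334), or -0.34 ± 0.24 with class as a term.

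Slc25a46, an outer-membrane member that takes part in mitochondrial fusion and fission rather than transport, was also higher. Its vehicle libraries read 60.6, 65.6, 63.9, 68.6 and 65.8 CPM and raloxifene libraries 84.6, 75.0, 87.1, 87.4 and 90.4 CPM. The groups did not overlap, and the highest vehicle library was the class B one. Slc25a46 rose by 0.39 ± 0.093 on the log2 scale (edgeR adjusted p = 0.0114), and its estimate with class as a term was 0.12 ± 0.066 (edgeR adjusted p = 0.945).

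Of the 3 calcium-dependent ATP-Mg/phosphate carriers, Slc25a24 rose and Slc25a23 fell. Slc25a24 read 2.75, 5.02, 3.42, 3.23 and 3.47 CPM with vehicle and 5.98, 8.15, 5.11, 5.28 and 6.43 CPM with raloxifene. These are low levels, with 17 to 65 counts per library over the study, and the nearest libraries of the groups were 5.02 and 5.11 CPM. Its log2 fold change of 0.78 ± 0.20 was the largest of the called carriers (edgeR adjusted p = 0.0128), and it was 0.54 ± 0.23 with class as a term (edgeR adjusted p = 0.907). Slc25a23 fell from 188 ± 8.01 CPM to 160 ± 10.8 CPM (SD, n = 5 each), by 0.23 on the log2 scale (edgeR adjusted p = 0.0457), and its estimate with class as a term was -0.04 ± 0.075 (edgeR adjusted p = 0.992). That call survived leaving out raloxifene replicate 2 but none of the other 9 libraries. Slc25a25, the third carrier of this type, was not called.

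Among the 10 carriers of cofactors and nucleotides, 3 rose, 1 fell and 6 were not called. Slc25a16, long linked to coenzyme A uptake, rose from 31.5 ± 3.22 to 40.2 ± 3.47 CPM (SD, n = 5 each, log2 fold change 0.35 ± 0.10, edgeR adjusted p = 0.0173). Slc25a32, which brings folate and flavin cofactor into mitochondria, rose from 7.54 ± 1.08 to 10.2 ± 0.854 CPM (0.44 ± 0.13, edgeR adjusted p = 0.0184). For Slc25a36, a pyrimidine nucleotide carrier, the rise was 0.27 ± 0.10 (edgeR adjusted p = 0.0497). Slc25a42, a coenzyme A carrier, fell from 31.3 ± 3.09 to 24.7 ± 2.15 CPM (-0.34 ± 0.094, edgeR adjusted p = 0.0139). Once class was a term, these 4 had log2 fold changes of 0.11 for Slc25a16, 0.23 for Slc25a32, 0.08 for Slc25a36 and -0.10 for Slc25a42. The call for Slc25a32 was lost without vehicle replicate 1. The call for Slc25a36 was lost without any one of vehicle replicates 1, 2, 3 and 5 or raloxifene replicates 2, 3 and 5. Slc25a51, the mitochondrial NAD carrier, was not called with raloxifene (0.23 ± 0.096, edgeR adjusted p = 0.0710).

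Of the 9 amino acid carriers, 2 fell with raloxifene and 7 were not called. Slc25a38, which supplies glycine for heme synthesis, read 15.01, 16.8, 18.99, 18.1 and 16.7 CPM with vehicle and 12.5, 14.9, 11.7, 11.8 and 14.99 CPM with raloxifene. The groups came close (14.99 and 15.01 CPM) without overlapping. The estimate for Slc25a38 moved little with class: it was -0.38 ± 0.099 (edgeR adjusted p = 0.0131) with group alone and -0.32 ± 0.11 (edgeR adjusted p = 0.772) with class as a term. The other class B libraries read 14.8 to 18.1 CPM for Slc25a38, so only the 2 highest raloxifene libraries reached their range. Slc25a29, a carrier of basic amino acids, fell from 15.01 ± 1.44 to 11.6 ± 1.77 CPM (-0.38 ± 0.14, edgeR adjusted p = 0.0497), and its estimate with class as a term was -0.01 ± 0.12. Leaving out any one of raloxifene replicates 1, 2 and 5 or vehicle replicates 1, 2, 3 and 5 ended that call. The neuronal aspartate/glutamate carrier Slc25a12, its relative Slc25a13, and the glutamate carriers Slc25a22 and Slc25a18 were not called in any of the 8 pairwise comparisons.

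The carriers of di- and tricarboxylates, which move Krebs cycle acids across the inner membrane, gave 2 falls among 3. Slc25a10, the dicarboxylate carrier, read 24.2, 23.03, 24.6, 15.9 and 21.1 CPM with vehicle and 12.7, 16.1, 16.9, 14.2 and 16.4 CPM with raloxifene. The class B vehicle library, at 15.9 CPM, lay inside the raloxifene range and the 4 class A vehicle libraries lay above it. Its log2 fold change was -0.51 ± 0.14 (edgeR adjusted p = 0.0135), and -0.12 ± 0.11 with class as a term (edgeR adjusted p = 0.970). Slc25a1, the citrate carrier that feeds fatty acid synthesis, fell from 21.97 ± 1.11 to 16.7 ± 1.81 CPM (-0.39 ± 0.13, edgeR adjusted p = 0.0267), with an estimate of -0.09 ± 0.11 once class was a term. Its call was lost without vehicle replicate 1, 3 or 5 or raloxifene replicate 1 or 2. Slc25a11, the oxoglutarate/malate carrier, was not called (-0.19 ± 0.091).

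Iron and glutathione carriers gave 2 falls among 4. Slc25a39, which brings glutathione into mitochondria, read 30.0, 32.2, 27.3, 27.96 and 30.9 CPM with vehicle and 23.6, 23.5, 23.4, 22.2 and 24.1 CPM with raloxifene, with no overlap. It fell by 0.34 on the log2 scale (edgeR adjusted p = 0.0180), a call lost without vehicle replicate 2, and its estimate was -0.07 ± 0.080 with class as a term. Slc25a28, the more widely expressed mitoferrin, fell from 28.3 ± 3.86 to 20.2 ± 3.61 CPM (-0.49 ± 0.13, edgeR adjusted p = 0.0131), though the groups overlapped. For Slc25a28 the class term gave -0.27 ± 0.13 (edgeR adjusted p = 0.937).

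**Figure D2:**
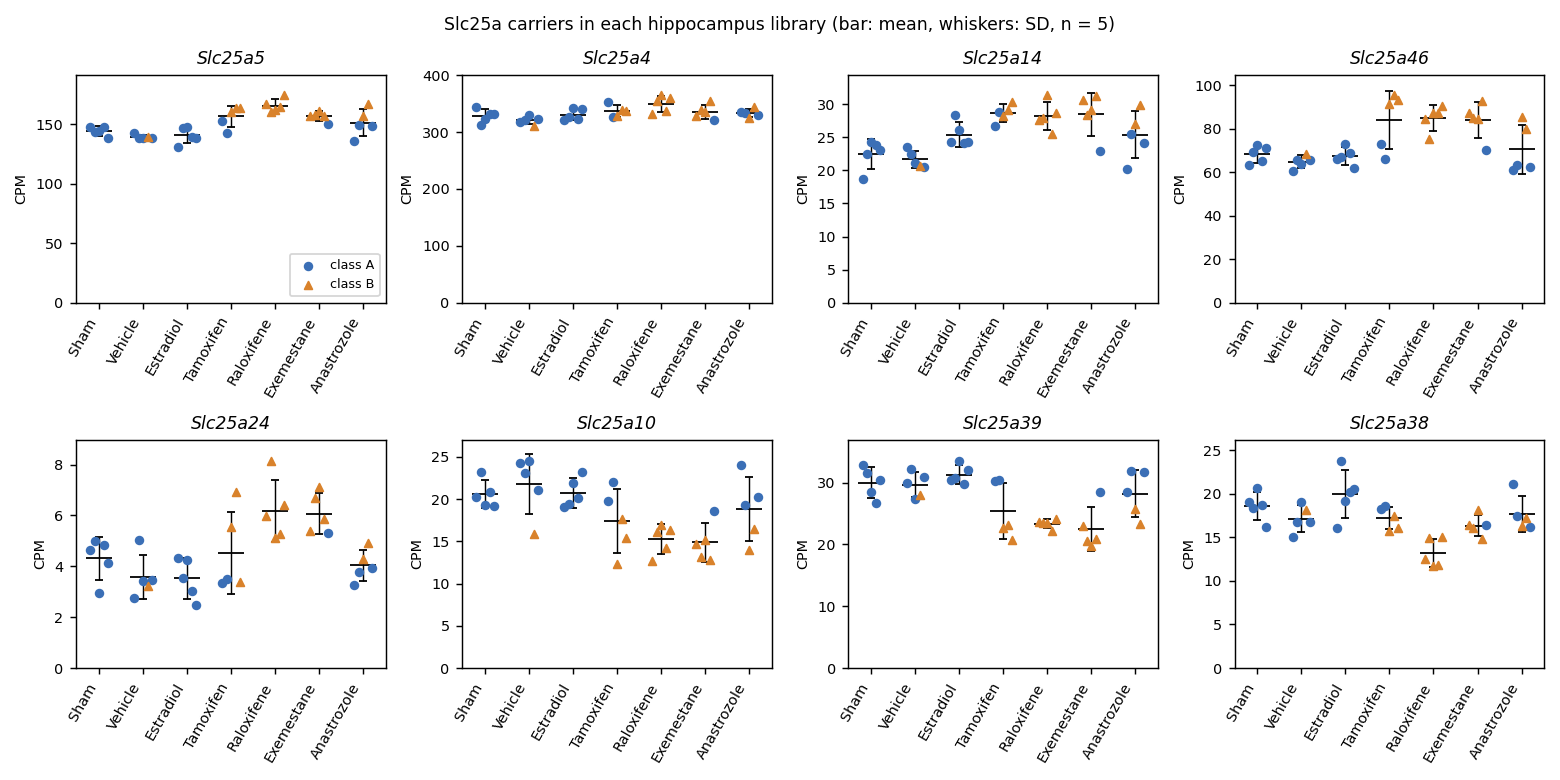
CPM of 8 carriers in each library of the 7 groups (vertical axes start at 0). Blue circles are class A libraries, orange triangles class B, and the black bar with whiskers is the mean with SD (n = 5). Within tamoxifen, exemestane and anastrozole, the class B libraries lie above the class A ones for Slc25a46 and below them for Slc25a39, and the raloxifene libraries of Slc25a38 lie at 11.7 to 14.99 CPM.

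Exemestane gave 8 calls of 40 (20%), 5 higher and 3 lower, where 6.51% of all tested genes were called by edgeR (4.06% higher and 2.45% lower). Slc25a14, Slc25a46, Slc25a32, Slc25a24 and Slc25a5 rose, and Slc25a10, Slc25a39 and Slc25a28 fell. The adjusted p values lay between 0.0394 and 0.0499, close to the threshold. Slc25a14 read 30.6, 28.3, 29.2, 31.3 and 22.9 CPM with exemestane. The lowest of these is replicate 5, the class A library, which fell inside the vehicle range of 20.5 to 23.5 CPM. Its log2 fold change was 0.39 ± 0.090 (edgeR adjusted p = 0.0394), and 0.28 ± 0.090 with class as a term (edgeR adjusted p = 0.5004). Slc25a46 was likewise lowest in replicate 5, with 87.0, 85.0, 84.3 and 92.6 CPM in the class B libraries and 70.4 CPM in replicate 5, the last just above the vehicle range of 60.6 to 68.6 CPM. It rose by 0.37 ± 0.093, with an estimate of 0.16 ± 0.062 once class was a term.

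Slc25a24 read 5.37, 6.69, 7.13, 5.87 and 5.29 CPM with exemestane, above every vehicle library (log2 fold change 0.75 ± 0.20, edgeR adjusted p = 0.0403). Slc25a32 rose by 0.51 ± 0.13 and Slc25a5 by 0.17 ± 0.049, both without overlap. Slc25a10 fell by 0.55 on the log2 scale, Slc25a39 by 0.40 and Slc25a28 by 0.40, and in each the class A library of exemestane was the highest of the 5. With class as a term the estimates were 0.57 ± 0.21 for Slc25a24, 0.35 ± 0.13 for Slc25a32, 0.10 ± 0.043 for Slc25a5, -0.26 ± 0.10 for Slc25a10, -0.20 ± 0.075 for Slc25a39 and -0.25 ± 0.12 for Slc25a28. These exemestane calls depended on single libraries: the count was 0 members, and 0 genes of all tested, without any one of the other 8 libraries, 13 without exemestane replicate 5 (28.7% of all genes) and 10 without vehicle replicate 4 (19.5%). It was also 0 when only these 2 groups were fitted (0% of all genes), and 3 (all higher: Slc25a5, Slc25a14 and Slc25a46) with the deposited factors as offsets (0.93% of all genes). After class was added 0 members were called, beside 0% of all genes, and 7 had an unadjusted p under 0.05, beside 6.97%. DESeq2, with group alone, called 9 members and 18% of the genes it gave an adjusted p.

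**Figure D3:**
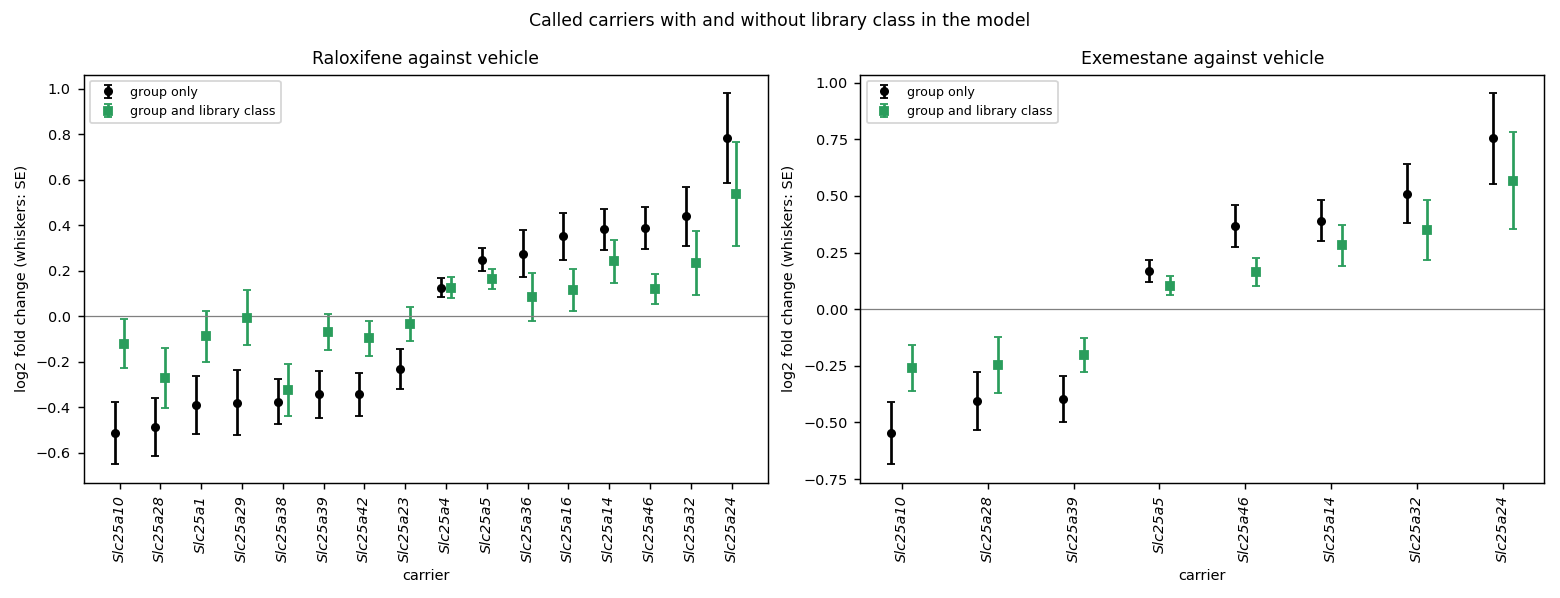
Log2 fold change with its SE for the carriers called with raloxifene (left, 16) or exemestane (right, 8), from the model with group alone (black circles) and with library class added (green squares). Most estimates lie nearer to 0 with class, and those of Slc25a4 and Slc25a38 with raloxifene moved least.

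Tamoxifen gave 0 calls of 40 by edgeR, beside 0% of all genes. At an unadjusted p under 0.05 there were 7 members, beside 16.4% of all genes. DESeq2 called 3 (Slc25a5, Slc25a14 and Slc25a46), beside 0.668% of the genes it gave an adjusted p. Slc25a14 read 26.8, 28.9, 28.3, 29.04 and 30.4 CPM with tamoxifen, every library above the vehicle range, and both class A libraries (26.8 and 28.9 CPM) did so too. Its log2 fold change was 0.40 ± 0.090 (edgeR adjusted p = 0.0935), and 0.33 ± 0.085 with class as a term (edgeR adjusted p = 0.162). Slc25a46 read 72.9, 66.0, 91.5, 95.3 and 93.1 CPM, the first 2 being the class A libraries. Its log2 fold change was 0.37 ± 0.093 (edgeR adjusted p = 0.105), and 0.22 ± 0.059 with class as a term (edgeR adjusted p = 0.205). Slc25a5 had 0.17 ± 0.049 (edgeR adjusted p = 0.154), and 0.12 ± 0.041 with class as a term (edgeR adjusted p = 0.337). Leaving out tamoxifen replicate 1 gave 1 call (0.276% of all genes) and leaving out tamoxifen replicate 2 gave 3 (4.01%), and the deposited factors as offsets gave 1, Slc25a14 (0.146%). Adding the class term left 0 called, beside 0% of all genes, and 5 had an unadjusted p under 0.05, beside 8.40%.

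Estradiol, the hormone that ovariectomy removes, gave 0 calls of 40 by edgeR, beside 0.00694% of all genes. An unadjusted p under 0.05 was found for 4 members, beside 9.13% of all genes. DESeq2 also called 0 members, beside 0.185% of the genes it gave an adjusted p. Here 4 vehicle libraries and all estradiol libraries were class A. Slc25a51 had the smallest p, with 57.9 ± 3.45 CPM against 69.2 ± 9.44 CPM with vehicle (log2 fold change -0.26 ± 0.098, edgeR adjusted p = 0.422). Slc25a14 read 24.2, 28.4, 26.05, 24.1 and 24.2 CPM, each above the highest vehicle library, and its log2 fold change was 0.23 ± 0.091 (edgeR adjusted p = 0.448). For Slc25a38 the estimate was 0.22 ± 0.098 (edgeR adjusted p = 0.499), opposite in sign to that of raloxifene. When class was added, 0 members were called, beside 0.298% of all genes, and 7 had an unadjusted p under 0.05, beside 10.2%.

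Sham, compared with ovariectomised vehicle rats, gave 0 calls of 40 by edgeR, beside 0% of all genes. An unadjusted p under 0.05 was found for 1 member, beside 6.81% of all genes. DESeq2 also called 0, beside 0.093% of the genes it gave an adjusted p. The member at an unadjusted p under 0.05 was Slc25a52, at 0.611 ± 0.366 CPM in sham against 1.52 ± 0.862 CPM with vehicle (edgeR adjusted p = 0.650), a gene of very few counts. Slc25a25, one of the calcium-dependent carriers, had 44.1 ± 4.71 against 39.0 ± 3.61 CPM (log2 fold change 0.18 ± 0.090, edgeR adjusted p = 0.754), and Slc25a32 had 0.24 ± 0.13. Without sham replicate 1, 0 members were called and 0 had an unadjusted p under 0.05, and the log2 fold changes were -1.07 for Slc25a52, 0.11 for Slc25a25 and 0.25 for Slc25a32. The fit of all libraries with class called 0, beside 0.0416% of all genes, and 4 had an unadjusted p under 0.05, beside 10.1%. Anastrozole gave 0 calls of 40 by edgeR and by DESeq2. Here edgeR called 0% of all genes, and DESeq2 called 0.0133% of those it gave an adjusted p. In edgeR 3 members had an unadjusted p under 0.05 (Slc25a14, Slc25a5 and Slc25a32), beside 2.87% of all genes. Slc25a14 read 20.3, 25.6, 27.01, 29.9 and 24.2 CPM with anastrozole, of which 27.01 and 29.9 CPM were the class B libraries (log2 fold change 0.23 ± 0.090, edgeR adjusted p = 0.9999). With class as a term 0 were called, beside 0% of all genes, and 3 had an unadjusted p under 0.05, beside 7.55%.

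The vehicle mean was the lowest of the 7 groups for Slc25a4, Slc25a5, Slc25a14, Slc25a32 and Slc25a46. A level particular to these 5 vehicle libraries and a rise in each other group cannot be told apart for these carriers.

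Tamoxifen and raloxifene were given at different doses, and their direct comparison gave 0 calls of 40 by edgeR and by DESeq2. Here edgeR called 0% of all genes, and DESeq2 called 0.0465% of those it gave an adjusted p. In edgeR 2 members had an unadjusted p under 0.05, beside 8.41% of all genes. Slc25a38 was higher in every tamoxifen library (18.2, 18.6, 15.8, 17.4 and 16.04 CPM) than in any raloxifene library. The log2 difference of 0.38 ± 0.099 had a 95% interval (from its SE) of 0.18 to 0.58 (unadjusted p = 0.000481, edgeR adjusted p = 0.584), and it was 0.35 ± 0.10 with class as a term. For Slc25a24 the difference was -0.46 ± 0.20, with an interval of -0.86 to -0.06. A class term left 0 members called, beside 0% of all genes, and 1 at an unadjusted p under 0.05, beside 4.07%.

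Exemestane and anastrozole also differed in dose, and edgeR called 0 of 40 members between them, beside 0% of all genes. At an unadjusted p under 0.05 there were 13 members, beside 27.1% of all genes. DESeq2 called 3 members, beside 12.3% of the genes it gave an adjusted p. Slc25a39 read 22.98, 20.5, 19.8, 20.8 and 28.6 CPM with exemestane and 28.5, 31.9, 25.8, 23.3 and 31.8 CPM with anastrozole. In both groups the class B libraries were the lower ones. Its log2 difference was -0.32 ± 0.10, with a 95% interval of -0.53 to -0.12 (edgeR adjusted p = 0.0901). Slc25a24 was higher in every exemestane library than in any anastrozole library (0.58 ± 0.20, interval 0.19 to 0.98, edgeR adjusted p = 0.0950). Leaving out exemestane replicate 5 gave 10 calls (23.8% of all genes), anastrozole replicate 4 also 10 (18.6%), and anastrozole replicate 3 gave 5 (10.6%). With class as a term 0 were called, beside 0.0278% of all genes, and 8 had an unadjusted p under 0.05, beside 12.8%.

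One test of any difference among the 7 groups called 18 of 40 members (45%) by edgeR, where 37% of all tested genes were called. With class as a term it called 0, beside 0.0278% of all genes, and 5 had an unadjusted p under 0.05, beside 12.7%. Without sham replicate 1 the group test called 19, beside 38.1% of all genes. The smallest adjusted p was that of Slc25a42 with group alone (0.00108) and that of Slc25a38 with class as a term (0.220).

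Between the library classes themselves, with group in the model, edgeR called 21 of 40 members (52.5%), against 51.9% of all tested genes. In class B, 8 members were higher (25.5% of all genes were) and 13 lower (26.3% were). Slc25a46 was higher by 0.33 on the log2 scale and Slc25a51 also by 0.33. Slc25a10 had a difference of -0.47, Slc25a29 -0.46, Slc25a1 -0.38, Slc25a39 -0.34 and Slc25a42 -0.30. Slc25a51 showed the split within 1 group: the class B vehicle library read 83.1 CPM and the other vehicle libraries 57.0 to 71.2 CPM. Both directions occurred within single roles, with Slc25a16 higher and Slc25a42 lower among coenzyme A carriers. Slc25a4, Slc25a3, Slc25a12, Slc25a27 and Slc25a38 were not called between classes, and the difference of Slc25a4 was 0.00 ± 0.030. With the deposited factors as offsets the count between classes was 8, of which 6 were higher, beside 27.2% of all genes.

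**Figure D4:**
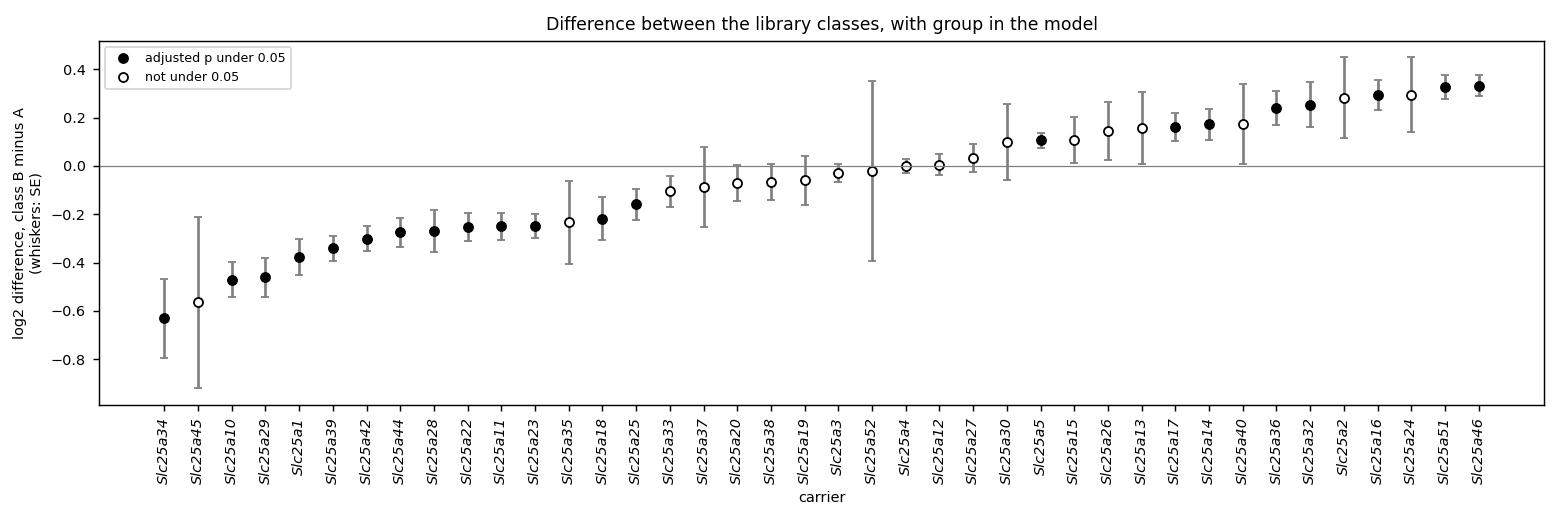
Log2 difference between class B and class A libraries, with its SE, for the 40 tested carriers, from the model that also holds group. Filled points have an edgeR adjusted p under 0.05 (21), and the values run from -0.63 (Slc25a34) to 0.33 (Slc25a46).

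Other genes of mitochondrial transport were taken from fixed lists and set beside the carriers in the same edgeR test, in which 24.8% of all genes were called with raloxifene and 6.51% with exemestane. With raloxifene both subunits of the pyruvate carrier rose, Mpc1 from 49.4 ± 1.77 to 63.9 ± 5.24 CPM (log2 fold change 0.37 ± 0.11, edgeR adjusted p = 0.0198) and Mpc2 from 10.6 ± 1.22 to 15.3 ± 2.63 CPM (0.53 ± 0.14, edgeR adjusted p = 0.0128). All 3 voltage-dependent anion channels of the outer membrane rose, Vdac1 by 0.13, Vdac2 by 0.21 and Vdac3 by 0.35. In the import route that inserts carriers into the inner membrane, 2 of 13 genes rose and 2 fell: the receptors Tomm20 (0.44 ± 0.10) and Tomm70 (0.40 ± 0.11) were higher, and the pore protein Tomm40 (-0.40 ± 0.12) and the chaperone Timm13 were lower, a share near that of all genes. Among 11 regulators of mitochondrial biogenesis, 3 rose (the ETS subunit gene Gabpa, its partner Gabpb1, and Tfb2m) and Pprc1 fell. Of 6 tested calcium uniporter genes Micu3 rose, and none of the 5 sideroflexins or 4 malate-aspartate shuttle enzymes was called. The carnitine enzyme gene Crat, the carrier homologue Mtch1 and the transporter Abcb8 fell, and Ucp2 was not called. With exemestane Tomm20 and Gabpa rose and Smdt1, Sfxn5 and Crat fell. In both comparisons 0 genes of these lists were called with class as a term, beside 0.00694% of all genes with raloxifene and 0% with exemestane. Between classes the pyruvate carrier (2 of 2) and the anion channels (3 of 3) were again higher in class B, where 25.5% of all tested genes were higher. Class differences of the other lists are not given here.

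Marker genes moved in the same comparisons, and their part in the carrier results was not tested. Of all tested genes, 24.8% were called with raloxifene (13.4% higher, 11.4% lower) and 6.51% with exemestane (4.06% higher, 2.45% lower). In class B 25.5% of all tested genes were higher. Of 12 listed mitochondrially encoded protein genes, 11 were higher with raloxifene and 0 with exemestane, and 11 were higher in class B than in class A. Their summed level was 45931 to 58848 CPM with vehicle, 63450 to 69516 CPM with raloxifene and 46851 to 64338 CPM with exemestane. Of 6 myelin genes, 4 were lower with both drugs. The list summed to 5855 to 7170 CPM with vehicle, 4842 to 5730 CPM with raloxifene and 4551 to 6254 CPM with exemestane. Low myelin sums were not particular to these drugs. They were 5078 to 5381 CPM with estradiol, 4886 to 5533 CPM with anastrozole and 4600 to 6100 CPM with tamoxifen. Sham replicate 1 read 8217 CPM and the other sham libraries 4697 to 5620 CPM. Every estradiol and anastrozole library was thus below every vehicle library. With exemestane 2 of 5 microglial markers (Csf1r and Tmem119) and 1 of 3 endothelial markers (Cldn5) were lower, 1 of 4 principal cell markers (Zbtb20) was higher, and 0 neuronal, GABAergic or astrocyte markers were called. With raloxifene 1 of 4 neuronal, 1 of 4 principal cell, 3 of 5 GABAergic, 2 of 6 astrocyte and 1 of 3 endothelial markers were called as well, in either direction. The neuronal sum was 3630 to 3782 CPM with raloxifene and 3093 to 3471 CPM with vehicle. The GABAergic sum was 591 to 657 CPM against 513 to 570 CPM. The principal cell, astrocyte and endothelial sums overlapped between these groups. No choroid plexus or thalamic marker was called with either drug, and 3 of 5 choroid plexus markers were at 0 in at least 1 library. In bulk tissue, fewer cells of a type and less RNA per cell cannot be told apart.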

How the data were processed

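Hippocampal RNA was sequenced as stranded poly(A) paired-end libraries, per the labels' protocols. The authors used Salmon and DESeq2, per the submitters' processing notes, and deposited expected counts per gene as whole numbers. A second deposited table holds normalized signal per gene, used here for library class and as offsets. Annotation, genome build and versions are not given in the sources used here.

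All 35 libraries entered 1 model in edgeR 4.0.16 (R 4.3.3), scaled by TMM after filterByExpr by group. The quasi-likelihood F-test was robust, and p-values were adjusted by Benjamini-Hochberg over 14411 genes with a threshold of 0.05. Each other group was compared with vehicle, and drugs of 1 kind with each other (tamoxifen and raloxifene, exemestane and anastrozole), besides 1 test of any difference. SE is the log2 fold change over the root of its F. Library class is the sign of the first component (72.3% of variance, the second 1.69%) of the centred log ratio of both tables over 14326 genes. DESeq2 1.42.0, other scalings, no filter, log2 Ttr (pseudocount 0.5) as a term, single classes, pairs of groups and leaving out each library were alternatives. The edgeR code was tested on simulated data. Named members were all those called in the 8 comparisons or the test of any difference, the 3 of smallest p per comparison and a fixed set by role. Members called only between classes were not all named. Related genes were the called ones, up to 3 per list and comparison by p. Timm13 and Gabpa with raloxifene, Slc25a43 and Slc25a45 were named after their values were seen. Members and lists were chosen with earlier results of these data known.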

Additional observations from a re-analysis of the deposited data

Results flagged for a closer look

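Within-group gaps were checked in 217 sets of 5 libraries, and 10 had 1 library set apart from the other 4 by more than Dixon's 95% limit, where chance gives about 1 in 20. Vehicle libraries accounted for 4 of them. Slc25a5 in vehicle replicate 1 read 142 CPM, against 138 to 139 CPM in the others, and Slc25a32 in the same library read 5.65 CPM, against 7.75 to 8.25 CPM. Slc25a13 in vehicle replicate 4, the class B library, read 6.05 CPM, against 3.80 to 4.45 CPM, and Slc25a27 there read 30.7 CPM, against 37.2 to 37.7 CPM. Exemestane replicate 5, the class A library of its group, read 183 CPM for Slc25a23, against 149 to 155 CPM, and 33.5 CPM for Slc25a42, against 25.5 to 27.5 CPM. Slc25a12 in exemestane replicate 1 read 77.3 CPM, against 70.8 to 71.9 CPM. Slc25a32 in estradiol replicate 4 read 10.97 CPM, against 8.19 to 8.70 CPM. Slc25a37 in tamoxifen replicate 3 read 1.56 CPM, against 2.99 to 3.14 CPM, and Slc25a38 in anastrozole replicate 1 read 21.1 CPM, against 16.2 to 17.4 CPM.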

How the results depend on the processing

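Counts of called carriers were compared over all alternatives. With class as a term, the counts for raloxifene, exemestane and any difference went from 16, 8 and 18 to 0. The shares of all genes went from 24.8%, 6.51% and 37% to 0.00694%, 0% and 0.0278%. With the deposited per-gene factors as offsets the counts were 7 for raloxifene (6.41% of all genes) and 3 for exemestane (0.93%). They were 1 for tamoxifen (0.146%) and 8 between classes (27.2%). In class B libraries alone vehicle is 1 library assumed to vary like the other groups, so no count of calls is given for them. Of the carrier log2 fold changes compared there, 24 were weaker than with all libraries, 11 about the same and 1 stronger. In class A libraries alone, which hold no raloxifene library, 12 were compared and all were about the same. Fitting only exemestane and vehicle gave 0. DESeq2 gave 3 for tamoxifen and 3 for exemestane against anastrozole, beside 0.668% and 12.3% of the genes it gave an adjusted p. Leaving out 1 library gave 10 to 17 for raloxifene, 0 to 13 for exemestane and 0 to 3 for tamoxifen. It gave 0 to 10 for exemestane against anastrozole, 14 to 20 for any difference and 16 to 21 between classes. The share of all genes called moved as well. It was 12.4% for raloxifene without vehicle replicate 1 and 4.01% for tamoxifen without tamoxifen replicate 2. Without exemestane replicate 5 it was 28.7% for exemestane against vehicle and 23.8% against anastrozole. The cause was not tested. DESeq2 size factors in edgeR, no filter and log2 Ttr as a term kept every count within 1.5 times. None of the carriers called or among the 3 of smallest p reversed sign under any of these alternatives to the fit with group alone. With class as a term, the raloxifene estimates near 0 changed sign when 1 library was left out: Slc25a1 ran from -0.124 to 0.0292, Slc25a23 from -0.0660 to 0.0603, Slc25a29 from -0.0667 to 0.118 and Slc25a39 from -0.100 to 0.0432. No paired analysis was possible because the labels link no libraries across groups. The replicate numbers used here follow the order of the titles within each group. Depth limits Slc25a24, Slc25a37, Slc25a45 and Slc25a52, among others, which had fewer than 100 counts in every library.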
